A study of Homo sapiens with 6 samples.

Results

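Leukocyte integrin subunits were examined as 10 genes, ITGAL, ITGAM, ITGAX, ITGB2, ITGA4, ITGA5, ITGA6, ITGB1, ITGB7 and ITGAE, picked by gene symbol from the 23698 gene rows of each library. All 10 were found, each on 1 row. All 10 also passed the filter on low counts, which left 13668 genes for testing. The libraries came from the established human cell line MV4-11, an acute myeloid leukaemia with an internal tandem duplication of FLT3 and a rearranged MLL gene. One group of 3 libraries came from cells stably transduced by lentivirus with a hairpin RNA that targets PRMT5, an enzyme that dimethylates arginine symmetrically. The other group of 3 came from cells transduced in the same way with a scrambled hairpin. All cells were grown in Iscove's medium with fetal bovine serum, and poly(A) RNA was sequenced. The labels do not say how many hairpins or clones were used, nor that the replicates were separate cultures, so the spread between libraries may be technical.

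Integrins are heterodimers of an alpha and a beta subunit that bind ligands on other cells or in the extracellular matrix once the receptor is switched to its active form. The beta2 subunit, encoded by ITGB2, is found on leukocytes and pairs with the products of ITGAL (LFA-1), ITGAM (Mac-1, a marker of myeloid maturation) and ITGAX (CD11c). The beta1 subunit is widely expressed and pairs with the products of ITGA4, ITGA5 and ITGA6, while the beta7 subunit pairs with those of ITGA4 and ITGAE. In acute myeloid leukaemia, adhesion through the ITGA4 and ITGB1 product to VCAM1 and fibronectin in the marrow is a known feature of blasts.

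Library totals were 16408484 to 19077106 estimated counts. PRMT5, the targeted gene, was at 103, 71.6 and 53.0 CPM (depth-scaled counts, with TMM factors) in knockdown 1, 2 and 3, against 133, 53.2 and 158 CPM in the libraries labelled scrambled control 1, 2 and 3. The value of the library labelled scrambled control 2 goes against its label. Across genes that library correlated with controls 1 and 3 at r = 0.923 and 0.876 in log2 CPM, against 0.967 between controls 1 and 3. With knockdown 1, 2 and 3 it correlated at 0.884, 0.909 and 0.88, so it was no nearer to the knockdown libraries than to control 1. Why it stands apart was not tested. Differences printed for integrin genes and the listed genes around them are therefore also given without it where its value was high or low. Of 12 myelomonocytic markers, CD33 was at 43.9 to 53.8 CPM and FLT3 at 283 to 515 CPM, while CD14 was at 0.406 to 1.09 CPM and ANPEP under 1 CPM in all libraries. The 12 markers summed to 1460 to 2500 CPM in knockdown and 1500 to 2310 CPM in control libraries. Lysozyme (LYZ) was low in the library labelled scrambled control 2, at 35.3 CPM, beside 430 to 1270 CPM elsewhere. MPO was also lowest there, at 13.8 CPM, beside 56.5 to 503 CPM elsewhere, as were FCGR1A and CD14. Other markers went the other way, with PTPRC, CD4 and CD68 highest in that library, at 380, 262 and 139 CPM. All 5 T cell markers with a row were under 1 CPM in every library (summed range 0.108 to 1.12 CPM in knockdown and 0 to 0.468 CPM in control libraries), with CD3E and CD2 at 0. Of 5 B cell markers, 4 were under 1 CPM and PAX5 was at 5.94 to 15.6 CPM. Of 6 erythroid and megakaryocyte markers, 4 were at 0. The 8 stromal and epithelial markers summed to 83.0 to 94.6 CPM in knockdown and 71.8 to 102 CPM in control libraries, with COL1A2, COL3A1 and EPCAM at 0. Most of that sum came from PECAM1, a surface protein also found on leukocytes, at 65.7 to 74.0 CPM in knockdown and 20.6 to 74.5 CPM in control libraries, and from the keratin genes KRT18, at 11.2 to 24.5 CPM, and KRT8, at 3.88 to 27.5 CPM over all libraries. PECAM1 was lowest, and KRT18 and KRT8 highest, in the library labelled scrambled control 2, and the part of any of these in the integrin values was not tested.

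In these cells the LFA-1 alpha subunit and the beta2 subunit gave the highest integrin transcript levels on average. To compare genes, each level was divided by the length of the longest coding transcript in GENCODE release 29. On that scale ITGAL averaged 120 ± 43.5 CPM per kilobase over the 6 libraries (SD, n = 6, both groups pooled) and ITGB2 averaged 105 ± 22.4. ITGB1 followed at 56.7 ± 12.4, ITGA5, the fibronectin receptor alpha subunit, at 52.8 ± 15.3, and ITGA4, the VLA-4 alpha subunit, at 47.5 ± 12.5 CPM per kilobase. ITGAM was at 12.8 ± 7.92 and ITGAX at 11.1 ± 14.2 CPM per kilobase. The lowest levels were those of ITGB7 (6.38 ± 1.94), ITGAE, the alpha subunit that binds E-cadherin (3.52 ± 0.770), and ITGA6, an alpha subunit of laminin receptors (2.14 ± 1.01 CPM per kilobase). The ranges of neighbours in this order overlapped, except that ITGB2, at 76.5 or more in every library, lay above ITGB1, at 72.2 or less. In knockdown 2, ITGB1 at 72.2 CPM per kilobase stood above ITGAL at 64.8. The ranges of ITGA4 and ITGAM met only in the library labelled scrambled control 2, where ITGA4 was at 23.9 and ITGAM at 24.3 CPM per kilobase. With coding length the order of the means was the same. With the median transcript length, which counts short partial transcripts, ITGB2 stood above ITGAL, ITGA4 above ITGA5, and ITGB7 above ITGAM and ITGAX.

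**Figure D1:**
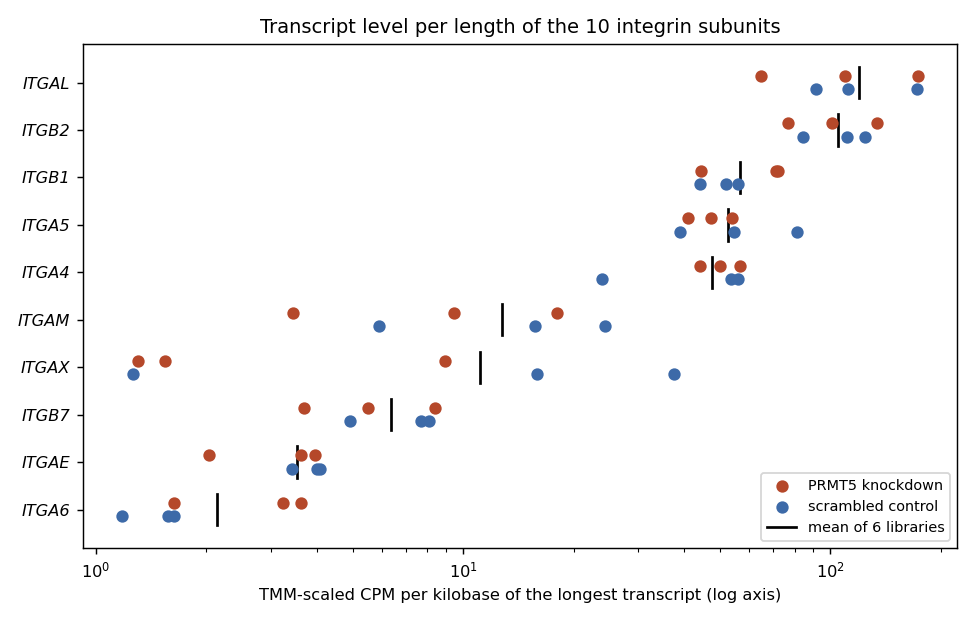
Level per length of each integrin subunit, in TMM-scaled CPM per kilobase of the longest transcript on a log axis, with 1 point per library (PRMT5 knockdown above scrambled control) and a bar at the mean of all 6. ITGAL and ITGB2 lead with means of 120 and 105, and ITGAX spans 1.26 to 37.5.

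ITGB2 itself ranged 1.75-fold over the 6 libraries, while its alpha partners ranged 2.66-fold (ITGAL), 7.03-fold (ITGAM) and 29.9-fold (ITGAX). ITGAL made up 97.2%, 70.6% and 91.1% of the summed level per kilobase of ITGAL, ITGAM and ITGAX in knockdown 1, 2 and 3, against 84.5%, 59.6% and 94.0% in libraries 1, 2 and 3 labelled control. ITGAX made up 0.867%, 9.76% and 1.07% in knockdown 1 to 3, against 7.82%, 24.5% and 1.06% in libraries 1 to 3 labelled control. The libraries numbered 3 were alike in this, and the ITGAX share was lower in the knockdown library in the libraries numbered 1 and 2. The sum of the 3 alpha levels was 2.32, 0.684 and 1.20 times that of ITGB2 in knockdown 1 to 3, against 1.64, 1.39 and 1.41 times in libraries 1 to 3 labelled control. Among ITGA4, ITGA5 and ITGA6, ITGA4 held 49.6%, 46.7% and 54.1% in knockdown 1 to 3, against 50.0%, 22.4% and 57.3% in libraries 1 to 3 labelled control. ITGA4 and ITGA5 were thus near even in 5 libraries, and ITGA5 was 3.40 times ITGA4 in the library labelled scrambled control 2. Among the beta subunits ITGB2 held 50.6% to 66.9% and ITGB7 2.44% to 4.51% in all libraries, the lowest value of both being in knockdown 1. These shares are descriptions of transcript levels per length, with no test, and say nothing of surface protein.

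**Figure D2:**
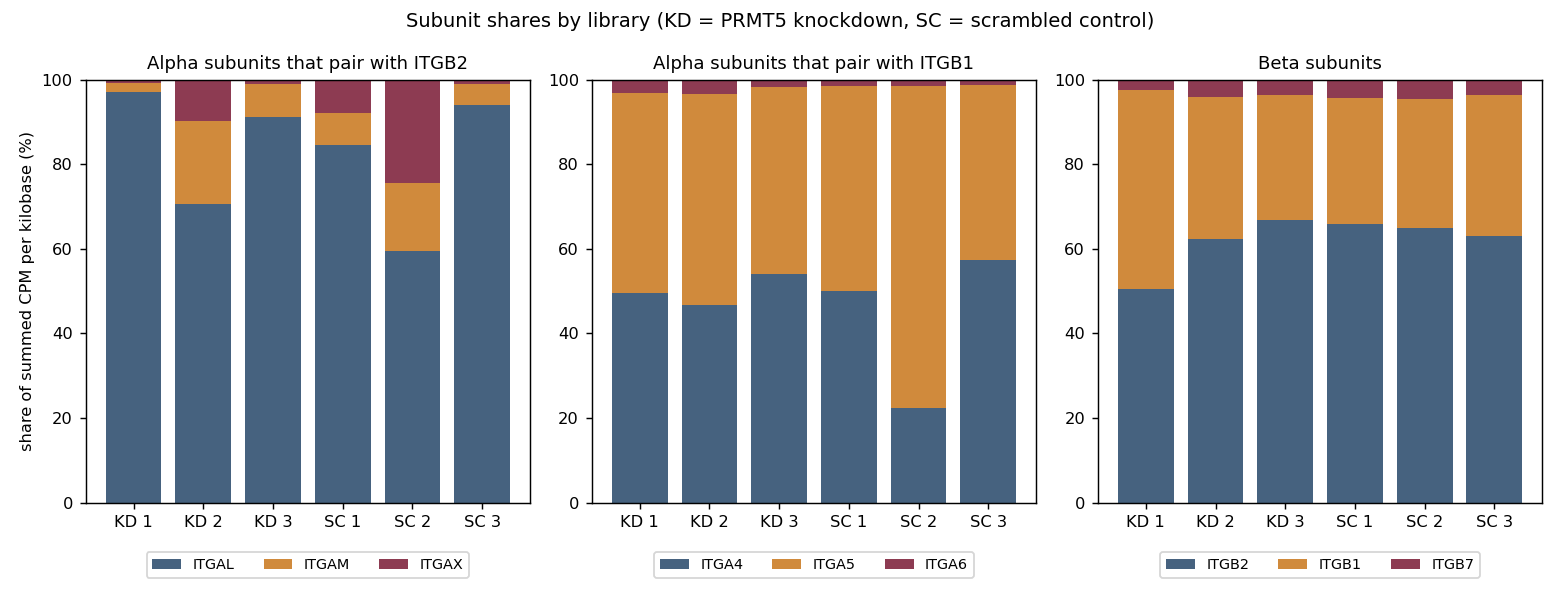
Stacked shares, in percent of the summed CPM per kilobase, with 1 bar per library (KD, PRMT5 knockdown, and SC, scrambled control). The panels hold ITGAL, ITGAM and ITGAX, which pair with ITGB2, then ITGA4, ITGA5 and ITGA6, which pair with ITGB1. The last panel holds the beta subunits ITGB2, ITGB1 and ITGB7. Genes outside the 10 subunits are not counted, among them ITGA7, at 76.9 CPM per kilobase in the library labelled scrambled control 2. The ITGAX share runs from 0.867% in knockdown 1 to 24.5% in the library labelled scrambled control 2, and ITGA5 holds 76.1% in that library against 41.4% to 49.9% in the other 5.

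Integrin transcripts were then compared between knockdown and control libraries. PRMT5 itself had a log2 difference of −0.60 (SE 0.43, 95% confidence interval −1.60 to 0.41, edgeR adjusted p = 0.926), with overlapping groups. A lower level of PRMT5 RNA in the knockdown group was thus not established in these libraries. The overlap came from the library labelled scrambled control 2 alone. Controls 1 and 3, at 133 and 158 CPM, lay above every knockdown library, the highest of which was at 103 CPM. The subunits were chosen with earlier results of these data known, so the values are a description. None of the 10 was called by edgeR's quasi-likelihood test at an adjusted p under 0.05 (adjusted p = 0.926 to 0.987), and neither was any other gene, 0 of 13668, or 0%. DESeq2 and limma-voom also called 0 genes. At an unadjusted p under 0.05, edgeR had 242 genes, DESeq2 461 and limma-voom 117. In the edgeR fit these 242 were 1.77% of the genes, and among the 10 subunits 1, ITGA6, was there, on the higher side, where 0.571% of all genes were. Higher fitted values in the knockdown libraries were found for 3 subunits and lower ones for 7, with a median log2 difference of −0.17 beside 0.00 over all genes tested, 49.9% of which had a higher value. For 853 genes, 6.24%, the 2 groups did not overlap, and none of the 10 subunits was among them.

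**Figure D3:**
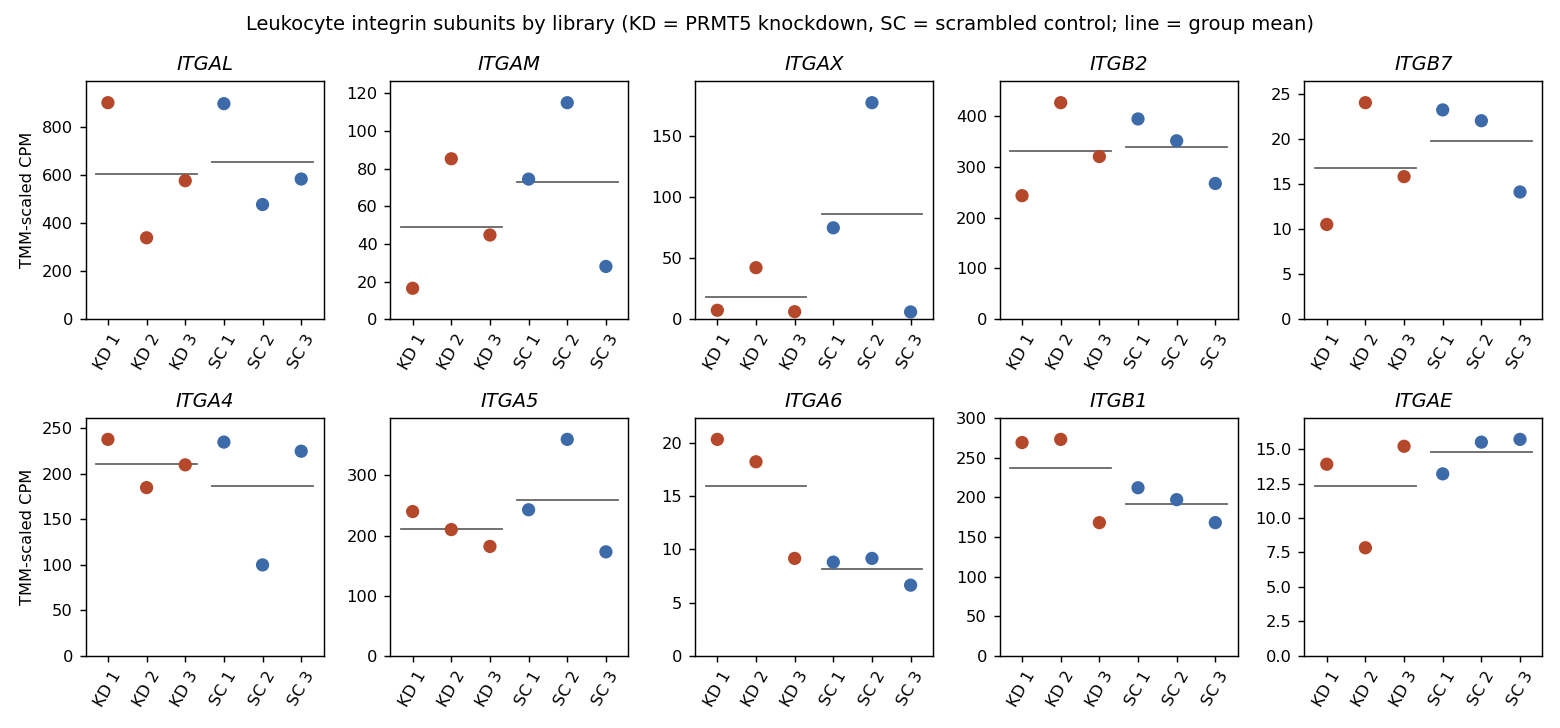
TMM-scaled CPM of the 10 integrin subunits, 1 panel each with its own linear axis from 0, 1 point per library and a line at each group mean (KD, PRMT5 knockdown, left; SC, scrambled control, right). ITGAX is at 6.11 to 42.1 CPM in knockdown and 5.90 to 177 CPM in control libraries, and the groups overlap or touch in every panel.

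ITGAX, on chromosome 16, encodes the alpha subunit of the complement receptor CD11c/CD18, a marker of monocytes, macrophages and dendritic cells. It was at 7.26, 42.1 and 6.11 CPM in knockdown 1, 2 and 3, against 74.7, 177 and 5.90 CPM in libraries 1, 2 and 3 labelled control. Knockdown 1 and 3 and control 3 were low, knockdown 2 and control 1 were intermediate, the library labelled scrambled control 2 was high, and the groups overlapped. The group means were 18.5 ± 20.5 CPM in knockdown and 85.7 ± 85.9 CPM in control libraries (SD, n = 3 each), a log2 difference of −2.21 (SE 1.17, 95% confidence interval −4.94 to 0.51, edgeR adjusted p = 0.926). Between libraries with the same number the log2 difference was −3.34 for number 1, −2.07 for number 2 and 0.05 for number 3. Without the library labelled scrambled control 2 the group difference was −1.12 (95% confidence interval −3.77 to 1.53), without control 3 it was −2.77, and without knockdown 2 it was −3.68. The highest library held 29.9 times the lowest, a range of 4.88 on the log2 scale that exceeded that of 99.4% of the genes tested.

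ITGAM, also on chromosome 16, encodes the alpha subunit of Mac-1, the complement receptor used in phagocytosis and neutrophil adhesion. It was at 16.4, 85.2 and 44.7 CPM in knockdown 1 to 3, against 74.4, 115 and 28.0 CPM in libraries 1 to 3 labelled control. The groups overlapped, with the lowest level in knockdown 1 and the highest in the library labelled scrambled control 2. The log2 difference was −0.57 (SE 0.66, 95% confidence interval −2.12 to 0.97), and −0.07 without the library labelled scrambled control 2. For libraries numbered 1, 2 and 3 the log2 difference was −2.18, −0.44 and 0.67, so the sign was not shared. ITGAM ranged 7.03-fold over the libraries, more widely than 94.0% of genes. ITGAD, the fourth alpha partner of beta2 and not among the 10, lies beyond ITGAX on the same chromosome and was near the floor, at 0.157, 1.03 and 0.162 CPM in knockdown 1 to 3, against 1.19, 3.37 and 0.0518 CPM in libraries 1 to 3 labelled control. Its high and low libraries were those of ITGAX.

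The promoter of ITGAM, in the GRCh38.p14 assembly, is shown because it varied most among the 7 subunits with a RefSeq window, and that of ITGB1 because it varied least, 1.63-fold. Each is the 250 bases before the annotated start on the strand of the gene, chr16:31259725-31259974 on the plus strand for ITGAM and chr10:32958231-32958480 on the minus strand for ITGB1. Capitals mark the GC box GGGCGG, bound by Sp1 and its relatives, and GAGGAA, a core used by ETS factors such as PU.1, on either strand (CCGCCC and TTCCTC when read on the other). In this pair of windows the motifs do not overlap.
ITGAM: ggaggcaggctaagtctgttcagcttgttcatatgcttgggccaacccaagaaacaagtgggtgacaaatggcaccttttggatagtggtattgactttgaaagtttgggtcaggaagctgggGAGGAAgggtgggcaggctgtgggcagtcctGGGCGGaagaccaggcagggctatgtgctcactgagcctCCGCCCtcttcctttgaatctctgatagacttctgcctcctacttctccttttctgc
ITGB1: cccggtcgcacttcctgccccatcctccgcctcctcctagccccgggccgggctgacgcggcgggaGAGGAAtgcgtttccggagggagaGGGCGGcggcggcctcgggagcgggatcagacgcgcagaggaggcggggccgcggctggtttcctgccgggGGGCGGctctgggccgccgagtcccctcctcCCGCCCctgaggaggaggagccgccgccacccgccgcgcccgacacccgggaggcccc
The ITGAM window holds 2 GC boxes and 1 GAGGAA, with a GC content of 53.2%, and the ITGB1 window holds 3 GC boxes and 1 GAGGAA, with 78.4%. A second RefSeq window of ITGB1, at another annotated start, held neither motif and had a GC content of 41.6%. Of 35116 windows of the same length, 42.6% hold a GC box and 23.6% hold GAGGAA, so both motifs are common. A match is a string of letters and not a measured binding site. ITGA4 had neither motif in its window, while ITGB7 and ITGAE had 1 GAGGAA each and ITGA5 had 1 GC box. For ITGA6, the window of the second annotated start had 3 GC boxes, and that of the first had neither motif.

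ITGAL, the LFA-1 alpha subunit that binds ICAM proteins, was at 899, 338 and 575 CPM in knockdown 1 to 3, against 895, 476 and 582 CPM in libraries 1 to 3 labelled control. For libraries numbered 1, 2 and 3 the log2 difference was 0.01, −0.50 and −0.02, so levels were alike in numbers 1 and 3. The 2 libraries numbered 1 were highest. The group difference was −0.11 (SE 0.40, 95% confidence interval −1.05 to 0.83), and its sign turned without knockdown 2 (0.18) or control 1 (0.19), while it was −0.29 (95% confidence interval −1.25 to 0.67) without the library labelled scrambled control 2. ITGAL was lowest in knockdown 2 and next lowest in the library labelled scrambled control 2, 2 of the 3 libraries with the most ITGAM. The third of these, control 1, had ITGAM at 74.4 CPM but a high ITGAL level, at 895 CPM. ITGB2, the common beta subunit, was at 243, 426 and 320 CPM in knockdown 1 to 3, against 394, 351 and 267 CPM in libraries 1 to 3 labelled control. The groups overlapped throughout, at means of 330 ± 91.7 and 338 ± 64.7 CPM (SD, n = 3 each) in the knockdown and control libraries and a log2 difference of −0.03 (95% confidence interval −0.68 to 0.61). An antisense gene, ITGB2-AS1, overlaps ITGB2 and had 1.15, 9.05 and 5.45 CPM in knockdown 1 to 3, against 14.5, 10.6 and 4.52 CPM in libraries 1 to 3 labelled control. Strand use in the counting is not given in the sources used here, so reads of this pair could have been exchanged, although ITGB2 held 4657 to 7011 counts per library and ITGB2-AS1 22.0 to 255.

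ITGA6, on chromosome 2, was the subunit with the smallest p and the highest fitted difference. It was at 20.3, 18.2 and 9.14 CPM in knockdown 1 to 3, against 8.79, 9.14 and 6.63 CPM in libraries 1 to 3 labelled control. Knockdown 1 and 2 lay above every control, and knockdown 3 was equal to the library labelled scrambled control 2 at this precision. The means were 15.9 ± 5.93 CPM in knockdown and 8.19 ± 1.36 CPM in control libraries (SD, n = 3 each). The log2 difference was 0.95 (SE 0.36, 95% confidence interval 0.11 to 1.80), with an unadjusted p of 0.0317 and an adjusted p of 0.926 in edgeR, so it did not pass the test. For libraries numbered 1, 2 and 3 it was 1.20, 0.98 and 0.46, higher in the knockdown library in 3 of 3. Without the library labelled scrambled control 2 it was 1.04, and over each library left out in turn it was 0.73 to 1.23. These values rest on 128 to 389 counts per library.

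ITGA4, the alpha subunit of VLA-4, was at 238, 185 and 210 CPM in knockdown 1 to 3, against 235, 100 and 225 CPM in libraries 1 to 3 labelled control. The 5 libraries other than the one labelled scrambled control 2 held 185 to 238 CPM and did not divide by group. Its log2 difference was 0.17 (SE 0.34), and −0.12 (95% confidence interval −0.54 to 0.29) without that library. ITGA5, the alpha subunit of the fibronectin receptor, was at 240, 210 and 182 CPM in knockdown 1 to 3, against 243, 360 and 173 CPM in libraries 1 to 3 labelled control. It was highest in the library where ITGA4 was lowest, and its log2 difference was −0.29 (SE 0.30) with that library and 0.02 (95% confidence interval −0.50 to 0.54) without it. ITGB1, the beta subunit of both, was at 269, 273 and 168 CPM in knockdown 1 to 3, against 212, 197 and 168 CPM in libraries 1 to 3 labelled control. Knockdown 1 and 2 lay above all controls and knockdown 3 equalled control 3, with a log2 difference of 0.30 (SE 0.25, 95% confidence interval −0.28 to 0.88).

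ITGB7 and ITGAE encode subunits best known from gut-homing and intraepithelial lymphocytes, and both were measured at low levels. ITGB7 was at 10.5, 24.0 and 15.8 CPM in knockdown 1 to 3, against 23.2, 22.0 and 14.1 CPM in libraries 1 to 3 labelled control. Knockdown 1 was low and the rest overlapped, with a log2 difference of −0.24 (SE 0.36). ITGAE was at 13.9, 7.84 and 15.2 CPM in knockdown 1 to 3, against 13.2, 15.5 and 15.7 CPM in libraries 1 to 3 labelled control. Knockdown 2 was low, and the log2 difference was −0.26 (SE 0.31). ZNF740, on the other strand, overlaps ITGB7 in GENCODE and held 664 to 1412 counts per library against 202 to 409 for ITGB7, so its reads could have entered the ITGB7 row if strand was not used.

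**Figure D4:**
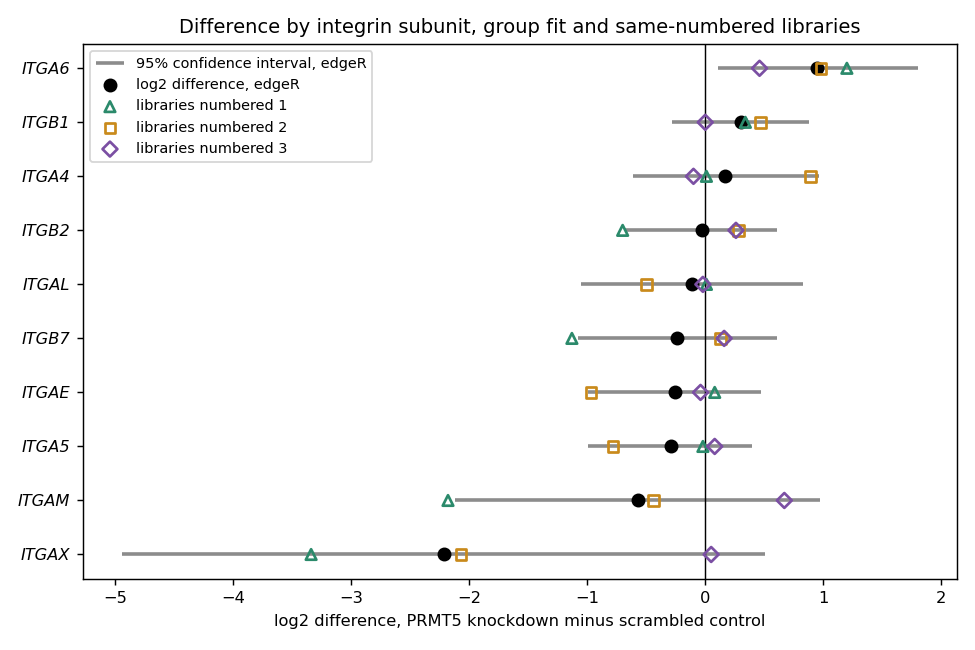
Log2 difference of PRMT5 knockdown minus scrambled control for each integrin subunit: the black point is the edgeR estimate, the grey line its 95% confidence interval, and the open symbols the differences between libraries with the same number. The interval lies above 0 for ITGA6 (0.11 to 1.80) and spans 0 for the other 9, and the libraries numbered 3 differ by 0.67 at most.

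The integrin differences between same-numbered libraries were set beside those of PRMT5 as a description, and a link between them was not tested. In the libraries numbered 3, where PRMT5 had a log2 difference of −1.58, the 10 subunits had a median absolute log2 difference of 0.09 (0.10 over all genes tested) and the largest was 0.67, for ITGAM. In the libraries numbered 1, where PRMT5 had −0.36, the median was 0.52 (0.29 over all genes) and the largest 3.34, for ITGAX. In the libraries numbered 2, where PRMT5 had 0.43, the median was 0.64 (0.60 over all genes) and the largest 2.07, again for ITGAX. ITGA6 was 1 of 2 subunits with the same sign in all 3 numbers. The other, ITGB1, had 0.34 and 0.47 in numbers 1 and 2 and a value that rounds to 0 in number 3.

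Of the 16 integrin subunit genes outside the 10, 7 were tested and none was called, 2 with a higher and 5 with a lower fitted value in the knockdown libraries (median log2 difference −0.77 beside 0.00 over all genes tested). Without the library labelled scrambled control 2 the counts were 4 higher and 3 lower, with a median of 0.30. ITGA8, ITGA9 and ITGB6 had no counts in any library. ITGA7, a laminin receptor subunit best known from muscle, was at 94.8, 150 and 26.2 CPM in knockdown 1 to 3, against 119, 317 and 24.2 CPM in libraries 1 to 3 labelled control. At 29.6 CPM per kilobase over the 6 libraries (SD 26.2), its mean exceeded those of ITGAM, ITGAX, ITGB7, ITGAE and ITGA6. Its level differed widely, with both libraries numbered 3 lowest and the library labelled scrambled control 2 highest. Its log2 difference was −0.77 (SE 0.90), and 0.34 (SE 0.82) without that library. ITGAV, a vitronectin receptor subunit, was at 22.7, 32.7 and 19.8 CPM in knockdown 1 to 3, against 21.3, 60.9 and 19.5 CPM in libraries 1 to 3 labelled control (log2 difference −0.43, SE 0.47, and 0.30, SE 0.27, without the library labelled scrambled control 2). ITGA2B, the platelet integrin alpha subunit, was at 0.157 to 1.52 CPM in knockdown and 0.259 to 4.02 CPM in control libraries (log2 difference −1.64, SE 1.07, and −0.72, SE 1.09, without the library labelled scrambled control 2). All 3 were highest in the library labelled scrambled control 2, as ITGAX, ITGAM and ITGA5 were.

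**Figure D5:**
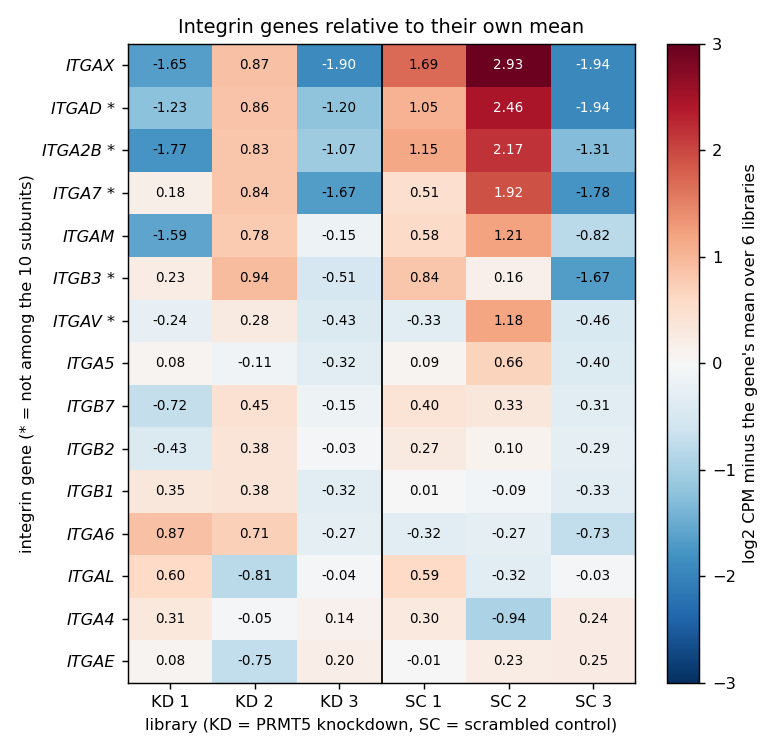
Log2 CPM of integrin genes minus the mean of each gene over the 6 libraries, with genes as rows and libraries as columns (KD, PRMT5 knockdown, left of the line; SC, scrambled control, right; an asterisk marks genes outside the 10 subunits). ITGAX runs from −1.94 in control 3 to 2.93 in the library labelled scrambled control 2, while ITGB2 and ITGB1 stay between −0.43 and 0.38.

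The genes with profiles most like those of 4 subunits were looked up among 9851 other genes whose mean reached 5 CPM, by the root-mean-square difference of centred log2 CPM over the 6 libraries. For ITGAX the nearest were TNNT1 (0.272), ACAP1 (0.394) and PFKFB4 (0.433), where the median gene had 1.96. PFKFB4, a hypoxia-inducible regulator of glycolysis, was at 9.71, 43.1 and 5.19 CPM in knockdown 1 to 3, against 90.6, 99.2 and 4.14 CPM in libraries 1 to 3 labelled control. For ITGAM they were TM7SF2, a sterol reductase (0.189), C19orf38 (0.232) and IL10RA, the interleukin-10 receptor subunit (0.255), beside a median of 1.03. For ITGB2 they were OSBPL5, RAB44 and BDH2 (0.0726 to 0.0836, median 0.451), and for ITGA4 ACP2, NAA20 and ALG5 (0.0378 to 0.0511, median 0.492). All of these measures rest on 6 libraries, of which 1 stands apart.

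Genes that act with integrins did not pass the test either. Of 18 tested genes for integrin activation and tail binding, 0 were called, 10 having a higher and 8 a lower fitted value in the knockdown libraries (median log2 difference 0.01). TLN2, which encodes a talin that links beta tails to actin, was at 14.1, 13.7 and 11.0 CPM in knockdown 1 to 3, against 8.28, 6.87 and 8.18 CPM in libraries 1 to 3 labelled control. Its groups did not overlap, as for 3.14% of all genes in that direction. The log2 difference of TLN2 was 0.74 (SE 0.26, edgeR adjusted p = 0.926), or 0.66 (SE 0.25) without the library labelled scrambled control 2. RASGRP2, the activator of RAP1 in leukocytes and platelets, had a log2 difference of 0.51 (SE 0.32), or 0.25 (SE 0.21) without the library labelled scrambled control 2, FLNA, a filamin that binds beta tails, 0.26 (SE 0.25) and ACTN4, an actinin, −0.04 (SE 0.24).

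Of 18 tested genes for integrin signalling and linkers, 0 were called, 8 having a higher and 10 a lower fitted value (median log2 difference −0.03). The kinase gene LYN was at 152 to 182 CPM in knockdown and 87.1 to 147 CPM in control libraries (log2 difference 0.36, SE 0.26, and 0.15, SE 0.17, without the library labelled scrambled control 2), and the parvin gene PARVB at 41.2 to 48.6 CPM in knockdown and 49.1 to 54.2 CPM in control libraries (−0.22, SE 0.19). Neither gene overlapped between groups, as for 3.14% of all genes on the higher side and 3.10% on the lower. ZYX, which encodes the focal adhesion protein zyxin, had a log2 difference of −0.50 (SE 0.32), or −0.12 (SE 0.21) without the library labelled scrambled control 2, and PARVG 0.11 (SE 0.21), or −0.02 (SE 0.16) without it.

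Ligands and counter-receptors were measured in the same cells. Of 12 tested genes, 0 were called, 7 having a higher and 5 a lower fitted value (median log2 difference 0.09). ICAM3, a ligand of LFA-1 on resting leukocytes, was at 11.3, 15.6 and 23.5 CPM in knockdown 1 to 3, against 39.7, 50.8 and 18.7 CPM in libraries 1 to 3 labelled control, a log2 difference of −1.11 (SE 0.43, edgeR adjusted p = 0.926) and of −0.79 (SE 0.41) without the library labelled scrambled control 2. ICAM5 had −1.48 (SE 0.64), or −0.41 (SE 0.35) without that library, and its 344 CPM in the library labelled scrambled control 2 stood above 48.0 to 108 CPM elsewhere. ICAM4 was at 21.7 to 32.6 CPM in knockdown and 35.2 to 45.1 CPM in control libraries, without overlap, as for 3.10% of genes in that direction (log2 difference −0.49, SE 0.24). LAMC1, a laminin chain, had 0.02 (SE 0.28), or 0.21 (SE 0.26) without the library labelled scrambled control 2. C3, the complement component whose fragment binds Mac-1, had 0.92 (SE 1.03), or 0.42 (SE 0.96) without the library labelled scrambled control 2, and was at 49.4, 96.8 and 308 CPM in knockdown 1 to 3, against 25.9, 14.9 and 200 CPM in libraries 1 to 3 labelled control.

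Of 10 transcription factor genes reported at leukocyte integrin genes, 0 were called, 9 having a higher and 1, SP1, a lower fitted value (median log2 difference 0.21). SP1 was at 123 to 137 CPM in knockdown and 146 to 340 CPM in control libraries and MYB at 465 to 592 CPM in knockdown and 240 to 462 CPM in control libraries, and neither overlapped between groups, as for 3.10% of all genes on the lower and 3.14% on the higher side. The log2 difference of SP1 was −0.72 (SE 0.34), and −0.24 (SE 0.16) without the library labelled scrambled control 2. That of MYB was 0.46 (SE 0.29), and 0.22 (SE 0.19) without it. CEBPA, a granulocyte lineage factor, had 0.07 (SE 0.31) and IRF8, a monocyte lineage factor, 0.29 (SE 0.31), and 0.07 (SE 0.25) without that library. The highest SP1 and the lowest MYB levels were those of the library labelled scrambled control 2.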

How the data were processed

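Each library has 1 table of estimated counts as the authors deposited them, whose totals differ between libraries. CASAVA 1.9, TopHat2 (version 2), edgeR and hg19 are listed in the submitters' processing notes, which give them neither role nor order. Counter, annotation and strand use are not given in the sources used. Of the deposited counts, 40.3% to 42.3% were whole (tolerance 1e-06), and 99.996% to 100% became whole when multiplied by 51 (tolerance 0.001), so a deposited value need not be a whole number of reads. What the 51 stands for is not given in the sources used. Counts were rounded, filtered with filterByExpr (minimum count 10) and tested with edgeR 4.0.16 (R 4.3.3, TMM scaling, glmQLFit and glmQLFTest, group as the only term, two-sided, Benjamini-Hochberg over 13668 genes, threshold 0.05). The edgeR code was tested on simulated data. SEs and 95% intervals came from that fit. Log2 CPM used a prior count of 2. DESeq2 1.42.0 and limma-voom (limma 3.58.1) were alternatives, with other scalings, filters, libraries left out and a replicate block. An exact permutation of 3 against 3 libraries cannot reach 0.05, so single values had none.

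The members and lists were chosen with earlier results of these data known. Named genes were the 10 subunits, PRMT5, other integrin genes whose mean reached 1 CPM, for each other list except the marker lists the 2 highest, the 2 with the smallest p and up to 4 without overlap, and the 3 genes most like ITGAM, ITGAX, ITGB2 and ITGA4. ITGAD, ITGA8, ITGA9, ITGB6, ITGB2-AS1, ZNF740 and the marker genes named were added after their values were seen.

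Both groups carry the numbers 1 to 3 in the titles, with no word on what a number marks. Deviations from the group means of same-numbered libraries correlated across genes at r = 0.127, 0.394 and 0.566, so same-numbered libraries were set side by side as pairs. Of the differently numbered pairs, knockdown 2 and control 1 reached 0.164, above the 0.127 of the libraries numbered 1, and the other 5 were below 0. Deviations within a group sum to 0 for each gene, so positive values in some pairs force negative values in others. The negative values are therefore no separate support for the pairing. In log2 CPM itself, knockdown 1 and 3 correlated most with the control of their own number (r = 0.969 and 0.995). Knockdown 2 correlated least with the library labelled scrambled control 2 (0.909), below control 1 (0.976) and control 3 (0.952). Pairing by number comes from the values, and not all of them go with it. Lengths came from GENCODE release 29 and promoters from RefSeq (GRCh38.p14), both matched by symbol; 7 of 10 subunits had a promoter window. As these are of another build than hg19, no position of the deposited counts was used. Reads carried no molecular identifiers, so low counts hold amplification error beside counting error.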

Additional observations from a re-analysis of the deposited data

How the results depend on the processing

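No gene was called under any alternative run, so the count of called genes stayed at 0. With the replicate block, which follows the pairing by number, the smallest adjusted p was 0.709, shared by ITGAX (log2 difference −1.86, SE 0.64), ITGA6 (0.89, SE 0.27) and ITGB1 (0.27, SE 0.20), and no call changed. The median of the 10 subunits was −0.17, −0.02 without both libraries numbered 2, and −0.20 to −0.01 with each library left out in turn. With each library left out, ITGAX ranged from −3.68 to −1.12, ITGAM from −1.24 to −0.07, ITGA6 from 0.73 to 1.23, ITGB1 from 0.18 to 0.49 and ITGAE from −0.44 to −0.02, keeping their sign. Ranges crossed 0 for ITGAL (−0.52 to 0.19), ITGB2 (−0.26 to 0.14), ITGA4 (−0.12 to 0.37) and ITGA5 (−0.51 to 0.02), and that of ITGB7 (−0.58 to 0) touched it. Without both libraries numbered 2, the sign also turned for ITGA4 (−0.04), ITGA5 (0.02) and ITGAE (0.02), and under total counts it turned for ITGB2 (0.01). No other scaling, filter, rounding or tool run turned a sign. The causes were not tested. Leaving out 1 library leaves a group of 2, whose spread is pooled with the other group. Levels per kilobase depend on the length chosen: with the median transcript length ITGB1 was at 377 CPM per kilobase, against 56.7 with the longest. Among the other lists, chosen for this check after the data were seen, leaving out the library labelled scrambled control 2 gave 5 higher and 13 lower signalling genes (8 and 10 with it) and 6 higher and 7 lower ligands (7 and 5 with it), while the activation genes (10 and 8) and transcription factors (9 and 1) had equal counts. The ligands tested were 13 without that library, where LAMB1 (log2 difference −0.11) also passed the filter, and 12 with it. Spread between libraries came to a biological coefficient of variation of 0.373. The lowest counts of the 10 subunits in any library were 113 for ITGAX, 128 for ITGA6 and 129 for ITGAE.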
